A study of Danio rerio with 14 samples.

Results

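RNAseq was performed on dissected retinas, RPE included, of 7 zebrafish carrying the chm ru848 mutation, here called chm, and 7 wild-type (wt) zebrafish, all at 5 days post-fertilization (dpf). The mutation affects chm, whose human counterpart is the choroideremia gene. The wt fish were of the AB strain. The sources used here do not say whether the fish of the 2 groups came from the same clutch, and embryos with the mutation live only to about this age, so the chm retinas come from animals near the end of their life span. This report describes the genes that were strongly lost in every chm retina: those whose highest value in the 7 chm retinas was below the lowest value in the 7 wt retinas, and whose mean was at least 3 log2 units lower in chm. The members were chosen by these measured values, so the chm and wt levels below are a description and carry no test. Of 19859 genes in the table, 65 met both thresholds, and 63 were kept after 2 identifiers that the Supplementary Tables of the study list were set aside (ppp1r3c2b and GYG1). A symbol could be paired with 59 of the 63. Single values are given for up to 61 of them, and counts and medians over the whole set are over all 63.

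Rod photoreceptors detect dim light. Light absorbed in the stacked discs of the outer segment activates the G protein transducin, which turns on a phosphodiesterase that breaks down cyclic GMP and closes the cation channels of the outer segment. A receptor kinase and arrestin shut the light-activated receptor off, and guanylate cyclase with its activating proteins restores cyclic GMP. Cones use a related set of proteins, and peripherin and ROM proteins hold the rims of the discs in shape. The product of the CHM gene, Rab escort protein 1, presents Rab proteins for the lipid tail that lets them attach to membranes, and Rab proteins direct vesicle traffic, including that toward the outer segment.

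The deposited values are normalised counts on a variance-stabilized log2 scale, and the lowest value of the table stands for a count of 0. Differences between low values are compressed on this scale, so the values were also converted back to normalized counts, and a residual level is the chm mean as a percent of the wt mean. Normalized counts are not corrected for gene length, so they do not rank genes by expression per molecule. The estimated depth was 14.3 to 29.5 M reads in the chm group and 18.1 to 26.6 M in the wt group. The transcript of CHM itself (ENSDARG00000003845) ranged from 216 to 492 normalized counts in chm and from 265 to 432 in wt, so the groups overlapped and its level does not check the labels. The 14 retinas held rod, cone and RPE genes, and also lens and surface keratin genes at widely varying levels. The summed level of 7 lens genes ran from 73.3 to 28178 normalized counts in chm and from 32.5 to 117144 in wt, with up to 4 of the 7 genes at 0 in a retina, and that of 5 keratin genes from 4304 to 178352 in chm and from 2830 to 233174 in wt, with none at 0. Retina wt6 stood apart from the other wt retinas: the sum of 9 cone marker genes was 446095 normalized counts there, against 1312160 to 2925220 in the other 6. Retinas chm5 and chm7 stood apart from the other chm retinas, with 28.3 and 29.5 M estimated reads against 14.3 to 20.1 M, keratin sums of 83809 and 178352 against 4304 to 27416, and sums over 9 RPE and pigment genes of 11875 and 18127 against 2219 to 5720.

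The 63 genes were mostly abundant in wt retinas and left a small remainder in chm. Their wt level had a median of 1929 normalized counts, from 152 to 70586 over the 61 genes given singly, against 153 over all genes, and the median member ranked at the 92.4th percentile of wt levels. The rule itself sets part of this, because the scale has a lower limit and a gene near that limit in wt cannot fall by 3 log2 units; the lowest-ranked member was at the 50.5th percentile. The wt mean was above 1000 normalized counts for 44 of the 63 and above 10000 for 9. The residual level in chm had a median of 5.33% of wt, from 0 to 15.0%, against 98.9% over all genes. It was under 1% for 10 genes, from 1 to 5% for 20, from 5 to 10% for 24 and at or above 10% for 9, so the loss spanned a continuous range. Since each retina was sequenced in bulk, fewer cells of a type and less RNA per cell cannot be told apart here.

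On the deposited scale the difference (chm minus wt) had a median of -3.51 and ran from -6.09 to -3.005, against a median of -0.06 over all genes. It was beyond -5 for 4 genes, between -5 and -4 for 8 and between -4 and -3 for 51. Over all 19751 genes tested, which had a value over the table's minimum in 7 or more retinas, every chm retina was below every wt retina for 7.98%, and 0.329% also had a difference of -3 or lower. All 63 members were among the genes tested. These shares come from the same contrast as the selection and stand here as background only.

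**Figure D1:**
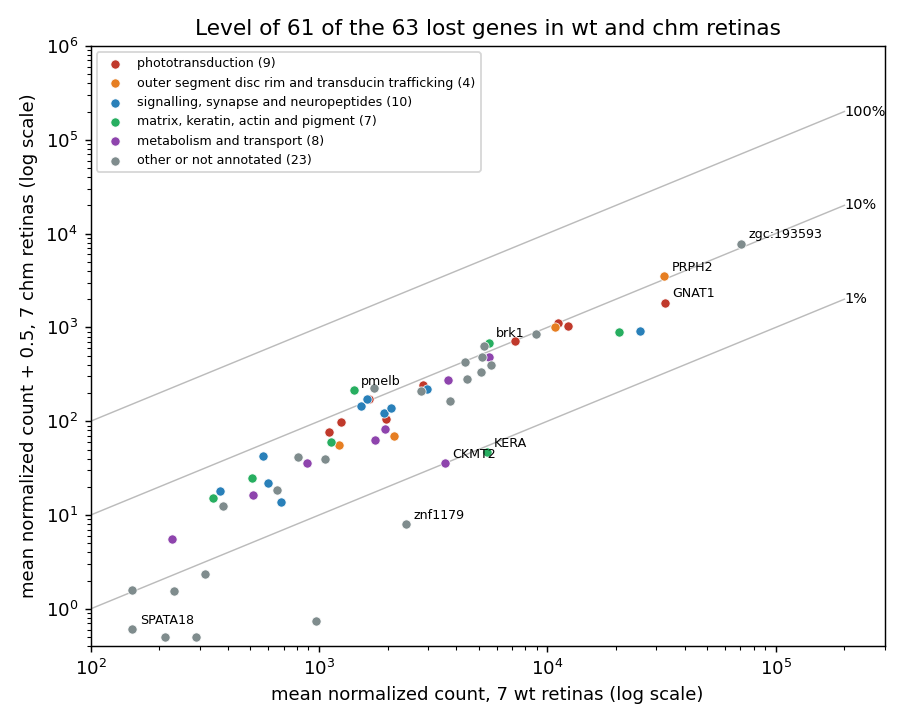
Mean normalized count of 61 of the 63 genes in 7 wt retinas (horizontal, log scale) against 7 chm retinas (vertical, with 0.5 added, log scale), coloured by role, with lines for 100%, 10% and 1% of the wt level. Most points lie between the 1% and 10% lines, with a median residual level of 5.33%, and zgc:193593 lies farthest to the right at 70586 normalized counts in wt.

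Among the members given singly, a group of 9 acts in phototransduction. The roles were assigned by hand after the values were seen. The residual level of the 9 had a median of 8.43% and ran from 5.42% to 10.4%, and none of the 9 was at 0 in any retina. All members ran from 0 to 15.0%, and a range over fewer genes tends to be narrower by size alone. Whether the narrower range is a trait of these genes was not tested.

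The transducin and phosphodiesterase members kept from 5.62% to 9.92% of the wt level. GNAT1, the rod transducin alpha subunit, ranged from 13415 to 50751 normalized counts in wt with a median of 32561 and from 910 to 3147 in chm with a median of 1676. The lowest wt retina was wt6 and the highest chm retina chm5, and the residual level was 5.62%. PDE6G, the inhibitory subunit of the phosphodiesterase, ranged from 7151 to 15456 in wt (median 11493) and from 534 to 1604 in chm (median 1104). PDE6B (ENSDARG00000000380), a catalytic subunit, ranged from 2035 to 3921 in wt (median 2737) and from 133 to 438 in chm (median 235). The groups were well apart for both, with residual levels of 9.92% and 8.57%, and here chm5 and chm6 were the highest chm retinas. A second identifier with the symbol PDE6B (ENSDARG00000011671) was no member, with a difference of -2.39 and a residual level of 19.1%. It ranged from 1044 to 2131 in wt and from 63.1 to 562 in chm.

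The members that switch the receptor or transducin off or restore cyclic GMP kept from 5.42% to 10.4% of wt. Their chm retinas were not all ordered alike. saga, a visual arrestin, ranged from 5564 to 9553 normalized counts in wt (median 7465) and from 130 to 1619 in chm (median 714), a residual level of 10.1% of wt. The kinases grk1b and GRK1, which phosphorylate light-activated opsin, had residual levels of 8.43% and 10.4%. rgs9bp, which anchors the complex that switches transducin off, ranged from 779 to 1682 in wt and from 5.65 to 186 in chm, with its lowest value in chm1. GUCA1B, an activator of guanylate cyclase, had one of the smaller spreads in chm, from 65.2 to 150 normalized counts against 969 to 2654 in wt. gucy2f, a photoreceptor guanylate cyclase, ranged from 729 to 1576 in wt and from 10.8 to 172 in chm. Its chm retinas were ordered unlike those of saga: chm2 was highest for gucy2f and lowest for saga, and chm7 was lowest for gucy2f.

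Of the 4 members linked to the disc rim or to transducin trafficking, rom1a was lost most. rom1a, a tetraspanin of the disc rim, ranged from 891 to 2756 normalized counts in wt (median 2053) and from 17.7 to 113 in chm (median 65.3), a residual level of 3.24%. Its relative ROM1 ranged from 4739 to 16594 in wt (median 11249) and from 578 to 1650 in chm (median 1000), a residual level of 9.34%. PRPH2, the peripherin that rods and cones share, ranged from 14722 to 43041 in wt (median 34228) and from 2019 to 6486 in chm (median 2693). Its residual level of 10.7% was the highest of the 4, with chm1 and chm5 well above the other chm retinas. unc119c belongs to the UNC119 family, which carries lipid-modified transducin to the outer segment, and ranged from 306 to 2046 in wt (median 1134) and from 14.01 to 101 in chm (median 52.2). wt6 was the lowest wt retina for all 4.

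**Figure D2:**
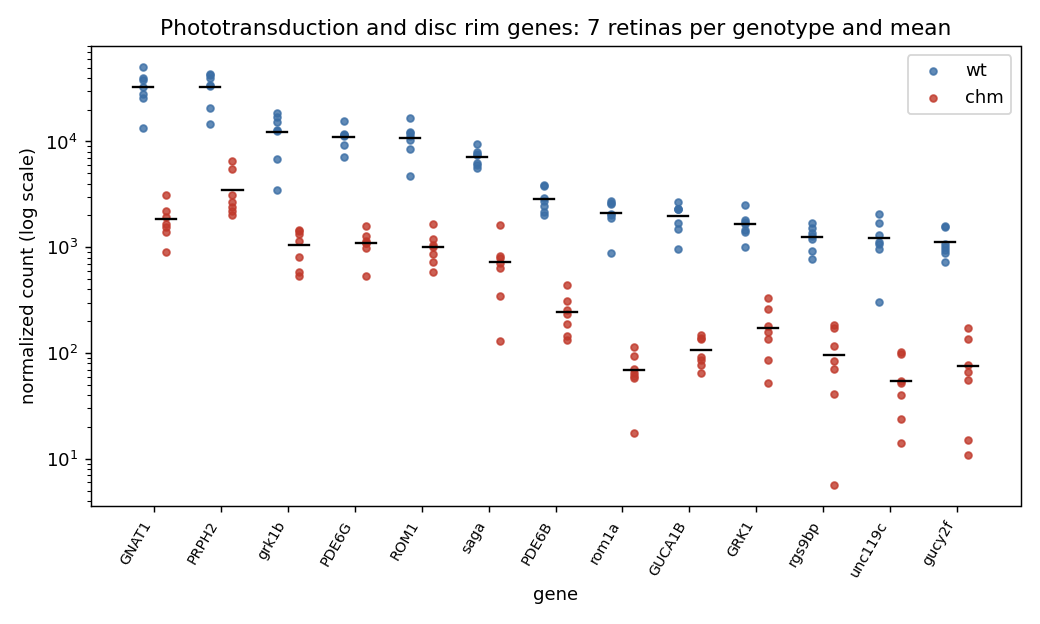
Normalized counts (log scale) of 13 phototransduction and disc rim genes in 7 wt and 7 chm retinas, each point a retina and each bar a group mean. The wt and chm points do not overlap for any gene, as the selection requires, and for rom1a the chm points sit between 17.7 and 113.

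The members covered part of the rod machinery, and the rest of it was measured on genes that the selection did not take. A list of 9 rod symbols, 8 of them found, matched 10 identifiers, of which 4 were members. Of the 6 others, 5 were lower and 1 was higher in chm (limma on the deposited values, adjusted over all genes), against 23.7% of all genes lower and 19.9% higher, and their median difference was -2.25. sagb, a second arrestin, had a difference of -2.78 ± 0.27 (SE, adjusted p = 3e-07 by limma), and CNGA1, the rod channel subunit, was lower at both of its identifiers, with differences of -2.85 and -2.10. Their residual levels were 14.1% for sagb and 7.47% and 18.0% for CNGA1, so these genes also left little in chm without reaching the 3 log2 units. The transcription factor genes of the rod lineage went in opposite directions. nrl, which directs precursors to the rod fate in mammals, was barely detected, at 12.96 to 81.8 normalized counts in wt and 0 to 5.36 in chm. Its difference was -1.26 (adjusted p = 0.000215 by limma), on a scale that compresses differences between such low values. The residual level of nrl was 5.93%, from counts near the lower limit. NR2E3, which represses cone genes in rods, ranged from 464 to 1421 in wt and from 893 to 2905 in chm and was higher by 0.86 ± 0.30 (SE, adjusted p = 0.0251 by limma). Over 20 alternatives its adjusted p ran from 0.00779 to 0.058 by limma, 16 of them past the threshold, and the call was lost without chm1, chm3, wt5 or wt6.

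Of 17 cone symbols, 9 were found, and none of these was among the 63. Of the 9, 6 were lower, 1 was higher and 2 did not pass, against 23.7% of all genes lower and 19.9% higher. Their median difference was -2.25. This median is over all 9 cone genes, while the rod median above leaves out the 4 rod members, whose differences ran from -4.36 to -3.39. The 2 medians are therefore not on the same basis. The opsin opn1mw1 had a difference of -4.50, but its lowest wt value of 100050, in wt6, was below its highest chm value of 115892. Residual levels were 5.31% for opn1mw1, 7.68% for opn1lw1, 9.95% for opn1lw2, 14.3% for rcvrna and 19.5% for GNAT2. They were 29.8% for opn1sw2, 78.6% for pde6ha, 117% for PDE6C and 534% for opn1mw2. A deep loss was therefore not particular to the rod genes. opn1mw2 was higher by 2.51 (adjusted p = 0.000629 by limma). opn1sw2, lower by 1.90, lost its call in 1 of 20 alternatives, quantile normalization (adjusted p = 0.123 by limma; 0.00162 at the lowest). The absence of these cone genes rested in part on wt6: every chm retina was below every wt retina for 1 of the 9 cone genes with all 7 wt retinas and for 4 of 9 without wt6, and 2 of these, opn1mw1 and opn1lw2, would then also have met the fall of 3. For the 6 rod genes the same counts were 5 and 5, with 0 that would have been added to the members. Over all genes the share so separated was 7.98% with all 7 wt retinas. It was not counted without wt6, where fewer wt retinas make separation easier for any gene. The difference between rod and cone genes was not tested.

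**Figure D3:**
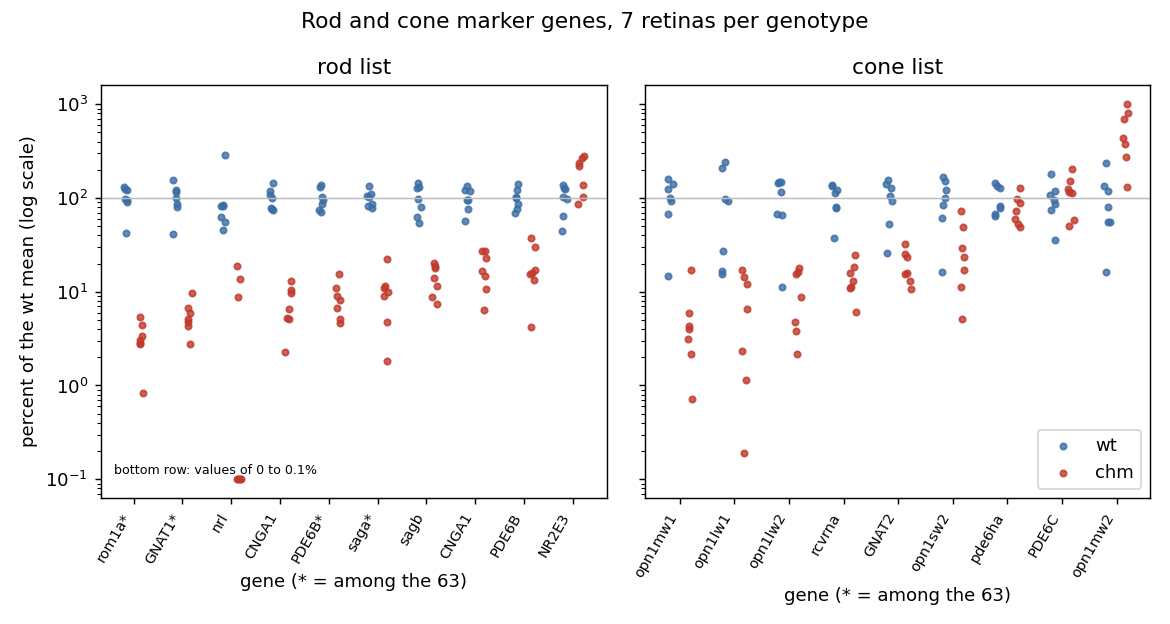
Rod (left, 10 identifiers) and cone (right, 9) marker genes as a percent of the wt mean (log scale), each point a retina, with an asterisk for the members. Most rod genes have 7 chm points below all wt points, NR2E3 rises above the 100% line, and several cone genes overlap at a single low wt retina, wt6.

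The 10 signalling, synapse and neuropeptide members had residual levels from 1.95% to 10.6%. GNG11, a G-protein gamma subunit by its symbol, had the largest difference of the group at -4.75. It ranged from 15485 to 35212 normalized counts in wt (median 25880) and from 666 to 1614 in chm (median 773). In 5 chm retinas, chm1, chm2, chm3, chm4 and chm7, it kept within 666 to 776, while chm6 was highest. nim1kb, a kinase of the AMPK-related family, ranged from 118 to 1063 in wt (median 696) and from 0 to 68.6 in chm (median 1.503). It was at 0 in chm1, chm3 and chm4 and highest in chm5, while its lowest wt value was in wt6. opn6b, a non-visual opsin, ranged from 2145 to 4054 in wt (median 2940) and from 71.2 to 537 in chm (median 180), with its highest chm value in chm1. cplx4c, a complexin of the kind found at ribbon synapses, ranged from 194 to 542 in wt and from 0 to 58.3 in chm.

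The neuropeptides VIP and NPY are made by amacrine cells in the retina. Their remainders overlapped across chm retinas, from 2.85% to 16.2% of the wt mean for VIP and 0 to 17.1% for NPY. VIP ranged from 890 to 2438 normalized counts in wt (median 1638) and from 46.3 to 264 in chm (median 164), a residual level of 10.6%. NPY ranged from 150 to 766 in wt (median 632) and from 0 to 97.5 in chm (median 15.7), a residual level of 7.44%. Its chm retinas lay in 2 sets, with 75.2 to 97.5 in chm2, chm5 and chm6 and 0 to 15.7 in the other 4. Of 4 amacrine markers that were no members, 3 were lower and 1 did not pass, against 23.7% of all genes lower and 19.9% higher, with a median difference of -1.26. Their sum ranged from 4681 to 17079 in chm and from 13109 to 24884 in wt, and its part in the levels of VIP and NPY was not tested. The other members of the group are calm2a, a calmodulin, camk2d1, a calmodulin-dependent kinase, wnk4b, a kinase that regulates ion transport, and mapkbp1, a binding protein of MAP kinases, with residual levels from 3.60% to 9.45%.

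The 7 members of the extracellular matrix, the cytoskeleton and pigment were the most uneven among chm retinas, with a median coefficient of variation of 117% in chm against 51.2% in wt. KERA, keratocan, a proteoglycan of the corneal stroma, ranged from 379 to 9145 normalized counts in wt (median 5765) and from 1.29 to 198 in chm (median 24.98). The lowest wt value, in wt6, was close to the highest chm value, in chm5, while the other 6 wt retinas were at 3998 or above. brk1, a subunit of the WAVE complex that drives actin branching, ranged from 4278 to 7679 in wt (median 5317) and from 45.2 to 2361 in chm (median 81.7). The level in 5 chm retinas kept within 45.2 to 95.0, and chm5 and chm7 were at 2080 and 2361, so the 2 retinas held 37.6% and 42.7% of the wt mean and the other 5 less than 2%. pmelb, related to the melanosome fibril protein PMEL, had the highest residual level of all 63 at 15.0%. It ranged from 761 to 2160 in wt (median 1353) and from 9.81 to 683 in chm (median 159), and chm7, at 48.1% of the wt mean, came close to the lowest wt retina.

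The rest of this group also kept its largest remainder in chm5 or chm7, apart from MYOC. scinla, a gene of the gelsolin family of actin-severing proteins, ranged from 4649 to 38898 normalized counts in wt and from 285 to 1792 in chm, highest in chm7. krt94, a keratin, ranged from 426 to 2356 in wt and from 9.31 to 156 in chm, highest in chm7 and next in chm5. FMOD, fibromodulin, a collagen-binding proteoglycan, ranged from 115 to 1049 in wt and from 0 to 108 in chm, and its gap of 0.07 log2 units between the lowest wt and the highest chm retina was the smallest of all members. MYOC, myocilin, secreted by eye drainage tissue in mammals, ranged from 164 to 615 in wt and from 0 to 29.2 in chm, highest in chm6. Over the 7 genes the median level was 8.76% of the wt mean in chm5 and 13.8% in chm7, against 0.817% to 2.40% in the other 5 chm retinas. The 5 keratin genes that were no members were highest in these same chm retinas, at 83809 and 178352 normalized counts, and of the 5, 1 was lower in chm and 4 did not pass, against 23.7% of all genes lower. Their part in the levels of KERA, krt94 and the others was not tested.

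Of the 8 metabolic and transport members, CKMT2 was lost most. CKMT2, a mitochondrial creatine kinase, ranged from 565 to 5910 normalized counts in wt (median 3454) and from 3.65 to 99.3 in chm (median 27.1), a residual level of 0.992% and a difference of -5.62. wt6 was again lowest in wt and still above every chm retina. HPD and HGD, consecutive enzymes in the breakdown of tyrosine, had residual levels of 3.04% and 3.55%. HPD ranged from 160 to 1351 in wt and from 0 to 51.1 in chm, and HGD from 290 to 5121 in wt and from 12.005 to 196 in chm. Both were highest in wt3 and lowest in wt6 among the wt retinas and highest in chm7 among the chm retinas. RHBG, an ammonium transporter, ranged from 550 to 2567 in wt and from 32.8 to 141 in chm, and RBP2, a retinol-binding protein, from 307 to 2380 in wt and from 14.7 to 84.1 in chm. selenop, the selenium carrier of plasma, and ACBD7, an acyl-CoA-binding protein, kept 7.53% and 8.69%, and ACBD7 had a small spread in chm, from 341 to 644 normalized counts.

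PFKM (ENSDARG00000060797), a muscle-type phosphofructokinase that catalyses a committed step of glycolysis, was among the members nearest the threshold. It ranged from 80.3 to 548 normalized counts in wt (median 147) and was at 0 in 4 of 7 chm retinas, with its highest chm value of 26.6 in chm1. The difference was -3.02 and the residual level 2.25%. A second identifier with the symbol PFKM (ENSDARG00000014179) was at 5.8 to 12.4 normalized counts in wt and 0 to 18.1 in chm, and its groups overlapped.

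A set of 10 members was near absent in chm, with under 1% of the wt level. KERA and CKMT2 are described above. znf1179, a zinc finger gene, had the largest difference of all 63 at -6.09 and ranged from 1262 to 3286 normalized counts in wt (median 2717) and from 0 to 17.8 in chm (median 4.69). Its gap of 4.69 log2 units between the lowest wt and the highest chm retina was also the largest. znf1156, a second zinc finger gene, ranged from 28.6 to 348 in wt (median 238) and was at 0 in all 7 chm retinas. ENSDARG00000115857, with no symbol, ranged from 189 to 454 in wt (median 247) and was also at 0 in all 7. ENSDARG00000109678, with no symbol, ranged from 528 to 2015 in wt (median 818), was at 0 in 5 chm retinas and reached 1.17 in the highest. SPATA18, a mitochondrial quality control gene in mammals, ranged from 93.2 to 235 in wt (median 158) and was at 0 in 6 chm retinas and at 0.727 in chm7. The other members of this set were another gene with no symbol, si:ch211-76l23.4 and si:ch211-215p11.5, with highest chm values of 4.94, 6.22 and 5.79 normalized counts. si:ch211-76l23.4 was uneven in wt too, from 13.5 to 842.

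znf1156, SPATA18, ENSDARG00000109678 and ENSDARG00000115857 had fewer than 3 estimated reads in every chm retina, so their loss is given as a bound. With 3 reads per retina as the floor, a mean of 3.19 normalized counts in chm, the wt level was at least 304-fold higher for ENSDARG00000109678, at least 91.0-fold for ENSDARG00000115857, at least 66.0-fold for znf1156 and at least 47.8-fold for SPATA18. The floor covers counting error only, and expression below it was not detectable at this depth. At the other end, 46 of the 63 were above 3 reads in all 7 chm retinas, and none was under 3 reads in any wt retina. In all, 16 members were at 0 in at least 1 chm retina and 7 in at least 4.

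**Figure D4:**
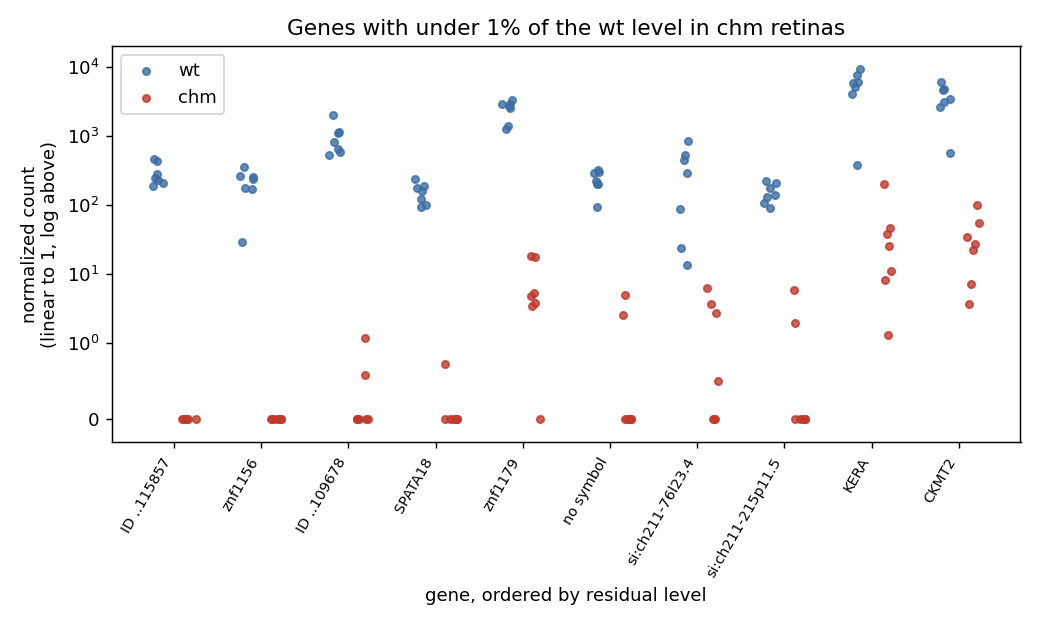
Normalized counts of the 10 genes with under 1% of the wt level in 7 wt and 7 chm retinas, on an axis that is linear to 1 and logarithmic above, each point a retina. znf1156 and the gene in the leftmost place have all 7 chm points at 0, and KERA has 1 wt point, wt6 at 379, close to its highest chm point at 198.

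The remaining members include abundant genes whose names tell little of their function. zgc:193593 ranged from 39323 to 112001 normalized counts in wt (median 70247) and from 3638 to 15811 in chm (median 7262), a residual level of 11.1%. prnpa, a prion protein gene, ranged from 2125 to 6035 in wt (median 3875) and from 51.7 to 377 in chm (median 164), a residual level of 4.38%. get1, which inserts tail-anchored proteins into the endoplasmic reticulum membrane, ranged from 662 to 2377 in wt (median 2039) and from 28.0 to 514 in chm (median 162). Its chm retinas were widely spread, with chm3, chm6 and chm1 at 360 to 514 and the others at 28.0 to 162. FAIM, an inhibitor of Fas-induced cell death, and TENT5A, a poly(A) polymerase, kept 9.71% and 6.36%, and FRMPD2, a scaffold protein with PDZ domains, kept 9.29% with a single high chm retina, chm4, at 26.4% of the wt mean.

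Over the 63 genes together, the loss was graded across retinas, but the order of the retinas differed between kinds of gene. The 9 phototransduction members had a median of 11.4% of the wt mean in chm6 and 6.53% in chm7. The 7 members of the matrix, the cytoskeleton and pigment had 1.46% in chm6 and 13.8% in chm7. The median over the 63 genes was 2.55% of the wt mean in chm4, 3.05% in chm2, 3.68% in chm1, 4.27% in chm3, 5.27% in chm7, 6.06% in chm6 and 7.20% in chm5. Neighbours in this order lay closer together than the quartiles of the genes within a retina, which ran from 1.14% to 6.40% in chm4 and from 3.66% to 10.9% in chm5. chm5 was the highest chm retina for 15 members and chm6 for 13, and chm4 was the lowest for 16 and chm2 for 13, so no retina was at the same end for all genes. In wt the medians lay between 95.0% and 111% in 6 retinas and at 56.7% in wt6, which was the lowest wt retina for 33 of the 63.

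**Figure D5:**
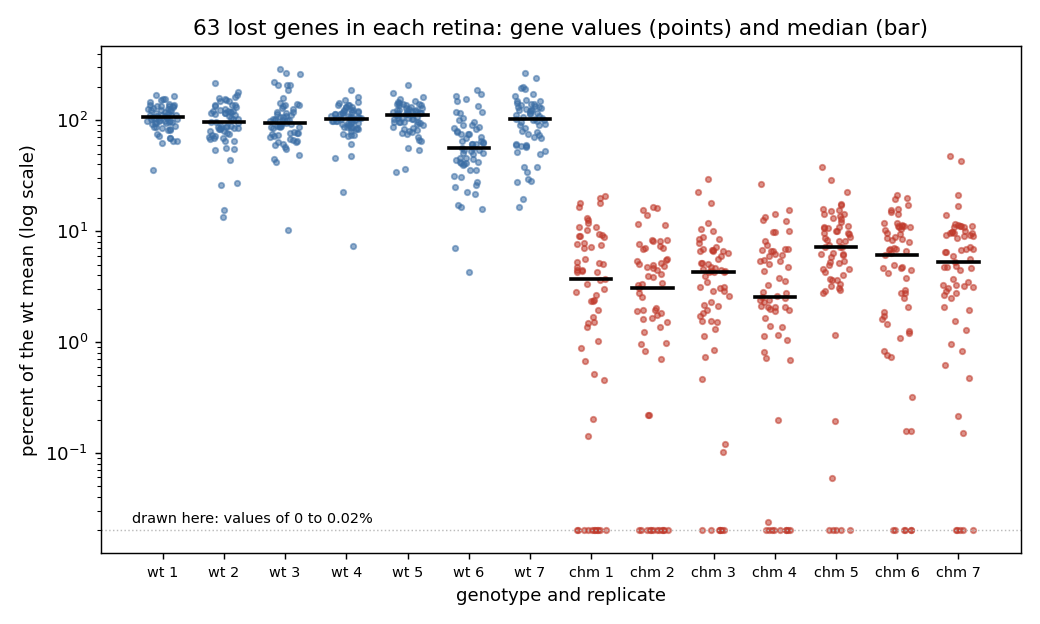
Level of the 63 genes in each retina as a percent of the wt mean (log scale), each point a gene and each bar the median, with values from 0 to 0.02% drawn on the dotted line. The chm medians run from 2.55% in chm4 to 7.20% in chm5, and wt6, at 56.7%, is below the other wt retinas.

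The members' mean level on the deposited scale rose with estimated depth across the chm retinas. It ordered them chm2, chm4, chm3, chm1, chm6, chm7 and chm5, which is not the order of the medians above. By those medians chm7, with the most estimated reads, was below chm6. The 2 retinas with the most estimated reads, chm5 and chm7, had 374 and 369 genes of the whole table at the lowest value, chm3 and chm6 had 760 and 628, and chm1, chm2 and chm4 had 1983, 1475 and 1469. Members at 0 numbered 5 and 5 in the first 2 retinas, 7 and 6 in chm3 and chm6 and 11, 12 and 9 in the last 3. Given as a description, 1 of 8 such relations computed, the members' mean level over the 7 chm retinas had a Pearson correlation of 0.88 and a Spearman correlation of 0.93 with the estimated reads, and a Pearson correlation of 0.80 without chm5 and chm7, whose depth stands apart. With how many genes of the table were at their minimum, the correlations were -0.77 (Pearson) and -0.75 (Spearman). Across the 7 wt retinas the correlations with the estimated reads were 0.27 (Pearson) and -0.07 (Spearman). The part of depth in the graded loss was not tested. With chm5 and chm7 left out together, an alternative chosen after the data were seen, the median residual level was 4.57%, the medians of the other 5 retinas spanned 3.51 percentage points in place of 4.65, and 87 genes met the rule, 60 of the 63 among them.

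Among the members, the spread between chm retinas was larger than between wt retinas in relative terms. The coefficient of variation had a median of 67.1% in chm and 36.3% in wt, and it was higher in chm for 53 of the 61 members with a value above 0 in chm. The rule can set part of this, because it asks for wt values above all chm values and leaves many chm values near 0. The same count over all genes was not made, so it is no result about chm retinas in general. The median correlation between pairs of members over the 7 chm retinas was 0.12, against 0.07 for 1206 genes that were 1 to 3 log2 units lower in every chm retina. Over the 7 wt retinas it was 0.22 against 0.07. The chm median also counts pairs with the 2 members at 0 in all 7 chm retinas, whose correlations have no meaning. In all, 16 members had a chm retina at 0, so the chm median says little on whether members rise and fall together. For the 13 phototransduction and disc rim genes described above it was 0.28 in chm and 0.64 in wt, where wt6 was low for most of them. Given as a description, the members most like GNAT1 over the 7 chm retinas were TENT5A (r = 0.91), KERA (r = 0.87) and nim1kb (r = 0.87), and the least like it was si:ch211-133l5.5 (r = -0.65). Over the 7 wt retinas they were unc119c (r = 0.99), GUCA1B (r = 0.96) and PDE6G (r = 0.95), all low in wt6.

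To read a retina that the selection had not used, the rule was applied to the other 13 retinas and the retina left out was then placed against the opposite group. A left-out chm retina was below every wt retina for 90.0% to 100% of the genes so chosen, the least for chm7 with 63 of 70. A left-out wt retina was above every chm retina for 98.3% to 100% of the genes in 5 of 7 cases, for 65 of 71 with wt7 left out, and for 73 of 88 (83.0%) with wt6 left out. Over all genes 7.98% separated the groups in this direction, a share that was counted on all 14 retinas. That share asks for every chm retina below every wt retina, while a left-out retina was only placed against the opposite group. It is therefore no background for the percentages above. The placement of a left-out retina was not counted over all genes. The genes were chosen for a large fall and full separation in the other 13 retinas. High percentages were therefore likely beforehand, and they are a description and no test of the members.

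The edge of the selection was not a break in the data. The members nearest to it were VIP at -3.04, get1 at -3.03, PFKM at -3.02, si:ch211-215p11.5 at -3.01 and si:ch1073-358o18.3 at -3.005. Just outside were MCF2L at -2.999, with 324 to 899 normalized counts in wt and 34.8 to 75.8 in chm, pcdh1g13 at -2.94 and SH3BGRL2 at -2.93. A further 27 genes were lower by 3 or more on the mean but had overlapping groups. The largest of these differences was that of RRM2, a subunit of ribonucleotide reductase, at -5.87, where 1 wt retina at 4.34 normalized counts lay below the highest chm value of 7.01. Among the 10 largest, 7 were genes of pancreatic enzymes (CELA1, prss59.2, prss1, ela3l, CPA1, prss59.1 and ctrb.1), which varied widely among wt retinas, as prss59.2 did from 0 to 11345.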

How the data were processed

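Groups come from the sample labels. Per the submitters' processing notes and the paper, SMART-Seq v4 libraries were trimmed with Trim Galore 0.6.7, aligned to GRCz11 with STAR 2.7.10a, counted with RSEM 1.3.3 and normalised with DESeq2 1.38.3. The deposited values are variance-stabilized log2 values made by the authors, not counts, so no count test was used. All 14 columns were used.

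The transformation was undone, which was checked against listed base means of 250 genes (relative difference up to 1.66e-14). The spacing of low normalized counts was taken as 1 read to estimate depth. Within a tolerance of 5%, 47.4% to 64.0% of low values were whole multiples, so reads were not recovered. The members and lists were chosen with earlier results of these data known. Genes that are no members were tested with limma 3.58.1 in R 4.3.3 (moderated test, mean-variance trend, two-sided, Benjamini-Hochberg over 19751 genes, threshold 0.05), and the scripts were tested on simulated data. The p-values set the mean difference between genotypes against the spread between these retinas. Since a shared clutch is not stated, genotype and clutch cannot be told apart by them. Python 3.11.15 with numpy 2.4.6, scipy 1.17.1 and pandas 2.3.3 was used.

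Symbols were paired with 18974 of 19859 identifiers, and some identifiers share one. Named were the 10 members with the largest falls, the 5 with the highest wt level, the 5 highest and 5 lowest residual levels, those nearest the threshold and marker list genes. Some items withheld for evaluations are not reported here. Other members were named for their role, after their values were seen. Alternatives changed the size of the fall, the overlap allowed, the scale, the scaling between retinas, the filter, the variance trend, a replicate block and each retina left out.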

Additional observations from a re-analysis of the deposited data

Results flagged for a closer look

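In 124 sets of 7 values (61 members in each genotype, and a median over the 63), the highest or lowest retina lay apart by Dixon's criterion in 16. Member values were judged on the deposited log2 scale and are given below as normalized counts. The criterion flags about 1 in 20 independent sets, but these sets share the same 14 retinas, and the selection constrained their values. The 2 members at 0 in all chm retinas could not be flagged there. The number flagged therefore has no expectation to be set against. Of the 16, 9 were low values in wt6: 379 normalized counts for KERA, 565 for CKMT2, 891 for rom1a, 118 for nim1kb, 306 for unc119c, 1147 for TLCD5, 157 for camk2d1 and 93.0 for a member with no symbol, and a median of 56.7% of the wt mean over the 63 genes. Low values in other wt retinas were 930 for si:ch211-133l5.5 in wt7, 28.6 for znf1156 in wt2 and 150 for NPY in wt2. In chm retinas, rom1a was low in chm7 at 17.7 and VIP low in chm4 at 46.3, si:ch73-119p20.1 was high in chm6 at 93.9, and SPATA18 was at 0.727 in chm7 and at 0 in the other 6.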

How the results depend on the processing

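The number of genes strongly lost in every chm retina was 63; it was 122 with a fall of 2.5 log2 units or more (median wt level 1056 normalized counts, median residual level 7.48%), 32 with 3.5, and 264 when the fall was taken as the log2 ratio of mean normalized counts, 61 of the 63 among them. The other settings gave 57 to 90. With each retina left out in turn the number was 58 to 88, highest without wt6 (62 of the 63 kept), the median wt level 1750 to 2012 normalized counts and the median residual level 4.95% to 5.67%. For the 23 members named by rule, whose direction with 1 retina left out is fixed by the selection, 37 of 322 such differences fell short of -3, in 6 members near the threshold, the smallest being -2.76 for get1 without chm2. With another scaling 9 of 69 did, the smallest being -2.87 for si:ch211-215p11.5 with quantile normalization. limma called 3535 to 3971 genes higher and 4239 to 4806 lower with 1 retina left out. Replicate numbers run from 1 to 7 in both genotypes, and the labels name no pairing: same-numbered retinas had correlations of their deviations from -0.12 to 0.10, 1 of 7 above 0.1, and 0 of 7 chm retinas correlated best with their own number. With the replicate block limma called 4036 genes higher and 4791 lower, against 3940 and 4687. Across chm retinas, the correlation of the members' mean level with estimated reads (r = 0.88, n = 7) was 0.80 without the 2 farthest retinas, 0.83 over the members above the median wt level and 0.87 with median centring. Across wt retinas, the correlation of the members' mean level with that of the genes gained in chm (r = -0.85, n = 7) was 0.34 without the 2 farthest retinas, so it rests on those, and that with the count of genes at 0 (r = -0.14) was 0.053 over the members above the median wt level. Of the single list genes, PDE6C had a difference of 0.22 with all retinas and -8.7e-05 (without wt3) to 0.40 with 1 left out, and pde6ha one of 0.71 with quantile normalization (-0.35); neither passed the test in any alternative. The causes were not tested. Depth limits the 4 members under 3 reads in every chm retina to lower bounds.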

Other observations

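Members that lie near each other were looked for in the gene order of the RefSeq assembly GRCz12tu, which is not the build of the files, so no coordinates are given. By symbol, 40 members were matched, and 3 pairs lay within 25 genes of each other: znf1156 and znf1179 with 10 genes between them, PDE6B and nim1kb with 11, and RHBG and ACBD7 with 22. How many such pairs other sets of 40 genes would give was not counted, so the number of pairs is no result about the members. The symbol PDE6B is shared by a member and by ENSDARG00000011671, which is no member, so the matched PDE6B may be either. The zinc finger pair was near absent in chm, with 0 and 0.309% of the wt level. apoeb, an apolipoprotein E gene that is on both the Müller glia and the macrophage list, was highest in the chm retinas that kept most of brk1, at 63225 normalized counts in chm5 and 69696 in chm7 against 14618 to 25046 in the other 5, and it did not pass the test between genotypes (adjusted p = 0.079 by limma). None of the 4 macrophage and microglia genes passed. Of the other lists, set against 23.7% of all genes lower and 19.9% higher, 8 of 9 RPE and pigment genes, 3 of 3 ganglion cell genes, the 1 horizontal cell gene and 1 of 2 endothelial genes were lower in chm, 2 of 5 bipolar genes were lower and 2 higher, 2 of 4 Müller glia genes were lower and 1 higher (rlbp1a, which was lower, is on both this and the RPE list), 1 of 7 lens genes was lower, and of 2 erythrocyte and 3 muscle genes none passed.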
